A study of Mus musculus with 9 samples.

Results

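The troponins, calcium pumps and tropomyosins of fast and slow muscle fibres were followed through injured mouse muscle, as 10 of the 54532 genes in the deposited table. They were chosen by name, from their Ensembl identifiers and without a filter on their values, although earlier results of these data were known. The 5 fast genes were Tnni2, Tnnt3 and Tnnc2 (troponins I, T and C), Atp2a1 (the calcium pump SERCA1) and Tpm1 (a tropomyosin). The 5 slow genes were Tnni1, Tnnt1 and Tnnc1 (the slow troponins I, T and C), Atp2a2 (the calcium pump SERCA2) and Tpm3 (a tropomyosin).

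RNA came from C57/BL6J mice whose tibialis anterior, a shin muscle made largely of fast fibres, had been injured with BaCl2, which destroys fibres and starts regeneration. All 9 muscles then received 3 injections, of PBS in young mice (4 months) and old mice (24 months), or of recombinant METRNL (Meteorin-like, a secreted protein) in the old rMETRNL group (24 months), with 3 libraries in each group. The libraries are called young PBS 1 to 3, old PBS 2 to 4 and old rMETRNL 1 to 3, as numbered in the labels. The labels name a suspension of cells and the series text day 4, whereas the study's text names whole muscle and day 8, so the age of the regenerating fibres in these libraries is not settled. No uninjured muscle was analysed here. The labels do not say which libraries come from separate animals, so that the p-values measure the spread between these libraries, which may be technical.

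In a muscle fibre, calcium released from the sarcoplasmic reticulum binds troponin C. Troponin I then lets go of actin, troponin T carries the movement to tropomyosin, and myosin can bind. The SERCA pumps return the calcium and end the contraction. Fast and slow fibres build this switch from different genes, and newly formed fibres are known to carry slow, embryonic and cardiac forms of several of these proteins before the adult forms take over. Gene counts do not separate the muscle and cytoskeletal products of Tpm1 and Tpm3, or the muscle and widespread products of Atp2a2.

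Each library held between 16238700 and 22522560 counts, and 3 counts, taken as the floor of detection, corresponded to 0.133 to 0.185 CPM, that is, counts divided by the library total and scaled by the TMM method. The 10 genes took 3.72% (old PBS 3) to 5.48% (old PBS 4) of all counts. The slow genes alone took 0.0220% (old PBS 4) to 0.121% (old PBS 3). These libraries thus stood at opposite ends for both forms. Pairs of libraries of one group differed by more than sampling noise, and the pair that differed most was also old PBS 3 and old PBS 4, with a chi-square of 188 per degree of freedom.

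The fast genes ran far above the slow ones. Per kilobase of exon, the median of the 9 libraries was 7798 CPM per kb for Tnnt3, 4582 for Atp2a1, 3004 for Tnni2 and 1847 for Tpm1. Each of these 4 genes exceeded the next in 9 of 9 libraries, although the ranges of neighbours overlapped between libraries. The slow genes followed after a gap that no library bridged, with medians of 32.2 CPM per kb for Atp2a2, 28.6 for Tnni1, 21.7 for Tnnt1, 19.2 for Tpm3 and 16.2 for Tnnc1. The order among the slow genes was not firm. Neighbours kept it in 6 to 8 of 9 libraries, and their ranges overlapped. Tnnc2 was the exception among the fast genes, at a median of 2.88 CPM per kb, below every other member in 9 of 9 libraries.

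Tnnc2 encodes the fast troponin C, the calcium sensor that fast fibres use, and its gene lies at chr2:164777161-164779967 on the minus strand of GRCm38. It held only 19 to 56 counts in a library. Of its 800 exonic bases, 592 (74.0%) also belong to exons of Ube2c, a cell division gene on the opposite strand, which held 86 to 272 counts. Scaled to the 208 bases that Tnnc2 does not share, its median would be 11.1 CPM per kb, still far below that of Tnni2. Whether the counting used strand, and what it did with reads on shared bases, is not given in the sources used here. Without strand, reads from both genes cannot be told apart. The level of Tnnc2 and every ratio with it are therefore uncertain. Atp2a1 shares 763 of its 3477 exonic bases (21.9%) with Rabep2, and Atp2a2 shares 83 of 6081 (1.36%). The other 7 genes share none.

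**Figure D1:**
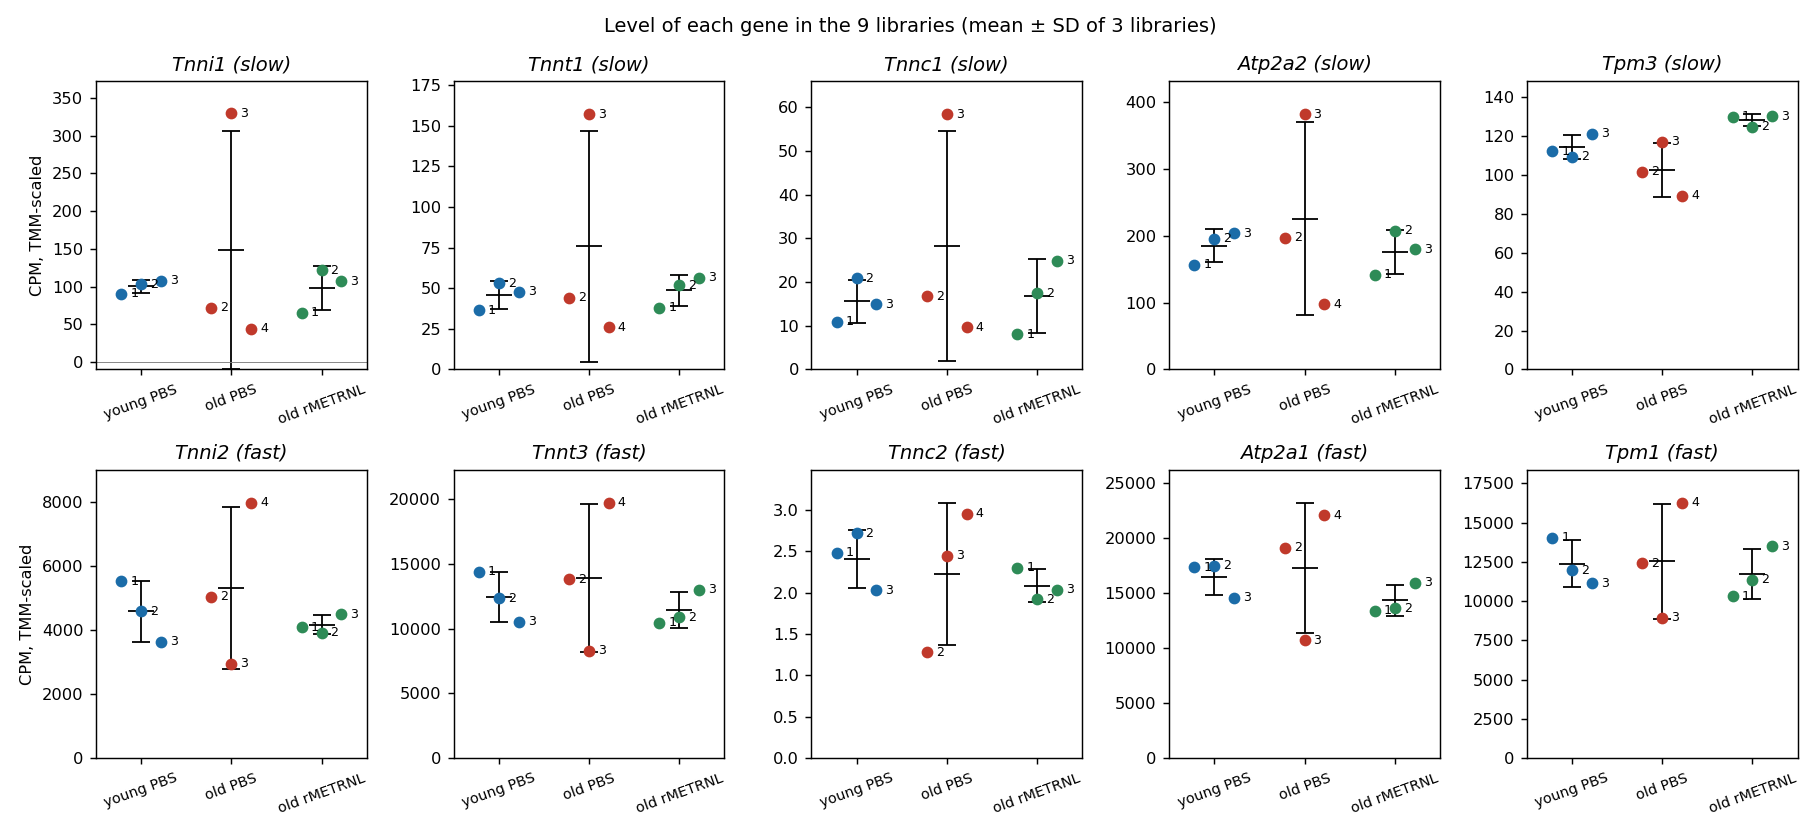
Level of each of the 10 genes in every library, in CPM scaled by TMM on a linear axis, with 1 panel per gene, slow genes above and their fast partners below. Points are libraries labelled with their replicate number, and black bars are the mean ± SD of 3 libraries. Old PBS 3 is the top point for Tnni1, Tnnt1, Tnnc1 and Atp2a2, and old PBS 4 is the top point for all 5 fast genes.

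Tnni1 encodes the slow form of the inhibitory subunit, at chr1:135779434-135810989 on the plus strand, 25364 bases from Tnnt2, the cardiac troponin T gene. It stood at 90.7, 103 and 107 CPM in young PBS, 71.9, 329 and 43.9 CPM in old PBS 2, 3 and 4, and 65.3, 122 and 107 CPM in old rMETRNL. Old PBS held both the highest and the lowest of the 9 values, so that its range took in both other groups. Old PBS 3 lay 3.40 times above the median of the other 8 libraries.

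Tnnt1 encodes the slow form of the subunit that anchors the complex to tropomyosin, at chr7:4504570-4516382 on the minus strand. Its levels were 36.4, 53.2 and 47.8 CPM in young PBS, 44.1, 157 and 26.2 CPM in old PBS, and 38.1, 51.9 and 56.5 CPM in old rMETRNL. The pattern was that of Tnni1, with old PBS 3 at 3.42 times the median of the others and old PBS 4 lowest.

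Tnnc1, at chr14:31208312-31211729 on the plus strand, encodes the troponin C that slow fibres share with the heart. It had 10.97, 20.9 and 14.9 CPM in young PBS, 16.8, 58.4 and 9.62 CPM in old PBS, and 8.08, 17.4 and 24.9 CPM in old rMETRNL. Old PBS 3 was again the highest, at 3.69 times the median of the others, while the lowest library was old rMETRNL 1.

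The promoters of these 3 slow troponin genes are shown because these genes lie on 3 chromosomes and had their highest level in the same library. RefSeq (GRCm38.p6) gave windows for 7 of the 10 genes, the others being Tnni2, Tnnt3 and Atp2a2. Each window holds the 250 bases before a transcription start. In Tnni1, capitals mark the E-box CAGCTG, which myogenic factors are known to bind. In Tnnt1 they mark TATAAA, an element of core promoters. In Tnnc1 they mark GGAATG, the reverse complement of the M-CAT element, which TEAD factors are known to bind. Tnni1 is chr1:135799171-135799420, Tnnt1 is chr7:4515976-4516225 and Tnnc1 is chr14:31208062-31208311.
Tnni1: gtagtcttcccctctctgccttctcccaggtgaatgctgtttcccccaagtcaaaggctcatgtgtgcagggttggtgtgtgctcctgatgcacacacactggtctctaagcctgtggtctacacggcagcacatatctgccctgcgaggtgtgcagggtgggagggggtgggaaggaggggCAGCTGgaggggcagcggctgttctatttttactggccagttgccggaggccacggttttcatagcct
Tnnt1: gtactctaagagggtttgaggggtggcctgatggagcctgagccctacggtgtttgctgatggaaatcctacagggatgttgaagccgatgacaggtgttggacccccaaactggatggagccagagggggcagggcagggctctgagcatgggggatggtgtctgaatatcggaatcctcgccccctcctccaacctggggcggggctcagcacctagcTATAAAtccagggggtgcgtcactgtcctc
Tnnc1: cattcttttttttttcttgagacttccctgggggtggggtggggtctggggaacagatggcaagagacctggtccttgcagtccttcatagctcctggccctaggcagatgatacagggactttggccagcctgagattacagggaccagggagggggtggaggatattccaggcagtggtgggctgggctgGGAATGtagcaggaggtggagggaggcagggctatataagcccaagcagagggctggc
The motifs were searched on both strands and did not overlap. The E-box CAGCTG occurs in 13% of all 32851 RefSeq promoter windows of this length, so it is common. The M-CAT element CATTCC occurs in 12.6% of them and TATAAA in 12.4%. The windows of these slow troponin genes shared none of the 3 motifs, and no window of the 7 genes held a match to the MEF2 site (0.508% of all windows) or the CArG box (1.47%) as searched.

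The slow pump followed the slow troponins with a smaller amplitude. Atp2a2 lies at chr5:122453513-122502225 on the minus strand. It had 157, 196 and 203 CPM in young PBS, 197, 381 and 97.2 CPM in old PBS, and 142, 207 and 179 CPM in old rMETRNL. Old PBS 3 was the highest, at 2.03 times the median of the others, and old PBS 4 the lowest.

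Tpm3, at chr3:90072649-90100902 on the plus strand, was the steadiest of the 10 genes and departed from the other slow ones. It had 112, 109 and 121 CPM in young PBS, 101, 117 and 89.2 CPM in old PBS, and 130, 125 and 130 CPM in old rMETRNL. Old PBS 3 ranked only 5th of the 9 libraries, next to the median of the others. The 3 old rMETRNL libraries were above the other 6. This tropomyosin gene is also used by cells other than muscle fibres. The 7 fibroblast markers (Col3a1, Col1a1 and Dcn the most abundant) summed to 9603 to 13096 CPM in young PBS, 4145 to 7713 CPM in old PBS and 8884 to 14584 CPM in old rMETRNL, and the 7 macrophage markers to 1532 to 1797, 1129 to 1563 and 1674 to 1958 CPM. No marker of either list was at 0 in any library, and their part in the level of Tpm3 was not tested.

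The fast genes had the opposite order within old PBS. Tnni2, the fast troponin I, lies at chr7:142441808-142444410, and Tnnt3, the fast troponin T, at chr7:142498836-142516009, both on the plus strand with 54425 bases between them. Tnni2 had 5541, 4594 and 3638 CPM in young PBS, 5051, 2950 and 7986 CPM in old PBS, and 4098, 3923 and 4497 CPM in old rMETRNL. Tnnt3 had 14404, 12344 and 10547 CPM in young PBS, 13828, 8306 and 19728 CPM in old PBS, and 10484, 10875 and 13003 CPM in old rMETRNL. For both genes old PBS 4 was the highest library and old PBS 3 the lowest, with 2.71 times (Tnni2) and 2.38 times (Tnnt3) between them.

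Atp2a1, which encodes the pump of fast fibres, lies at chr7:126445858-126463108 on the minus strand. It had 17315, 17473 and 14542 CPM in young PBS, 19103, 10702 and 22039 CPM in old PBS, and 13390, 13622 and 15932 CPM in old rMETRNL. Tpm1, at chr9:67022590-67049406 on the minus strand, had 14021, 11980 and 11124 CPM in young PBS, 12402, 8941 and 16252 CPM in old PBS, and 10316, 11371 and 13480 CPM in old rMETRNL. Both repeated the order of the fast troponins, old PBS 4 being highest and old PBS 3 lowest. Tnnc2 had 2.48, 2.72 and 2.03 CPM in young PBS, 1.28, 2.45 and 2.96 CPM in old PBS, and 2.30, 1.92 and 2.04 CPM in old rMETRNL. Its highest library was old PBS 4, but its lowest was old PBS 2.

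Old PBS thus held both the highest and the lowest library for 8 of the 10 genes, against 26.3% of the 16124 genes with sufficient counts. Old PBS 3 was highest and old PBS 4 lowest for Tnni1, Tnnt1 and Atp2a2, an order found in 6.26% of all genes. The reverse order held for Tnni2, Tnnt3, Atp2a1 and Tpm1, and for 8.9% of all genes. Within-group SDs were largest in old PBS for 10 of 10 genes, as they were for 69.0% of all genes. The median SD of log2 CPM of the slow genes was 0.20 in young PBS, 1.30 in old PBS and 0.30 in old rMETRNL. That of the fast genes was 0.18, 0.55 and 0.14, and that of all genes 0.19, 0.33 and 0.17.

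The ratio of a slow gene to its fast partner within a library does not depend on scaling between libraries. Per kilobase of exon, Tnni1 stood at 0.680%, 0.931% and 1.23% of Tnni2 in young PBS, 0.592%, 4.64% and 0.229% in old PBS, and 0.662%, 1.29% and 0.993% in old rMETRNL. Tnnt1 stood at 0.181%, 0.309% and 0.325% of Tnnt3 in young PBS, 0.229%, 1.36% and 0.0952% in old PBS, and 0.261%, 0.343% and 0.312% in old rMETRNL. Between old PBS 3 and old PBS 4 these ratios differed by 20.3 times and 14.3 times, more than any single member did.

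Atp2a2 stood at 0.518%, 0.640% and 0.799% of Atp2a1 in young PBS, 0.588%, 2.04% and 0.252% in old PBS, and 0.605%, 0.869% and 0.644% in old rMETRNL. Tpm3 stood at 0.851%, 0.972% and 1.16% of Tpm1 in young PBS, 0.871%, 1.39% and 0.585% in old PBS, and 1.34%, 1.17% and 1.03% in old rMETRNL. Old PBS 3 and old PBS 4 were the extremes for the pump and the tropomyosin pair too, 8.08 and 2.38 times apart. Tnnc1 ran from 250% (old PBS 4) to 1836% (old PBS 3) of Tnnc2, a ratio that rests on the uncertain counts of Tnnc2. All 5 ratios were highest in old PBS 3 and lowest in old PBS 4.

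**Figure D2:**
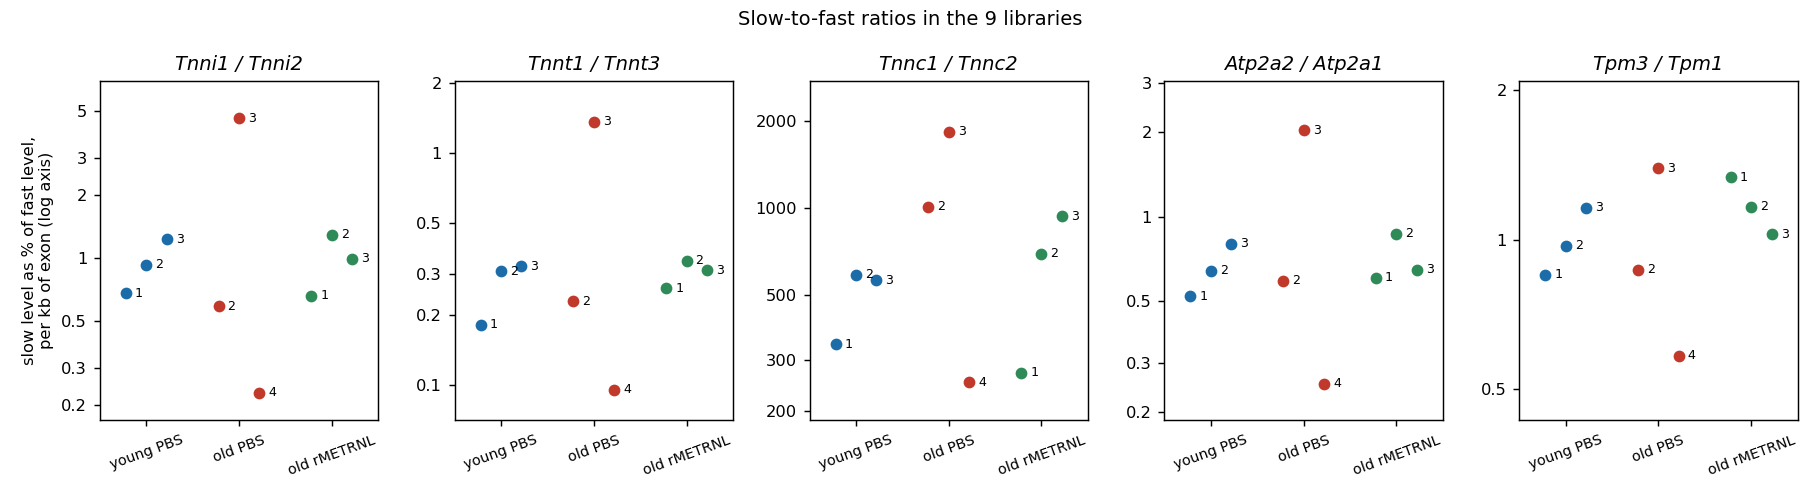
Slow-to-fast ratio of each pair in every library, as the percent that the slow level is of the fast level per kilobase of exon, on a log axis with 1 panel per pair. Points are libraries labelled with their replicate number. In all 5 panels old PBS 3 is the highest and old PBS 4 the lowest point, and the 3 groups overlap.

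No ratio differed between groups beyond the spread of the libraries. The mean ratio of Tnni1 to Tnni2 was 0.946% ± 0.274 (SD, n = 3 libraries) in young PBS, 1.82% ± 2.45 in old PBS and 0.982% ± 0.314 in old rMETRNL. For Atp2a2 to Atp2a1 the means were 0.652% ± 0.141, 0.959% ± 0.948 and 0.706% ± 0.142. On the log2 scale, exact permutation tests over the 3 groups gave p = 0.964 for Tnni1 to Tnni2 and 0.961 for Tnnt1 to Tnnt3. The same permutation tests gave p = 0.711 for Tnnc1 to Tnnc2, 0.921 for Atp2a2 to Atp2a1 and 0.514 for Tpm3 to Tpm1. All pairs of groups overlapped in all 5 ratios. The lowest exact permutation p between 2 groups was 0.2 (Tpm3 to Tpm1, old rMETRNL against young PBS), 3 libraries against 3 cannot go below 0.1, and all 20 tests had an adjusted p of 1.

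Without old PBS 3 the Tnni1 to Tnni2 ratio had a log2 difference of -1.32 for old PBS minus young PBS, in place of -0.10, and of 1.36 for old rMETRNL minus old PBS, in place of 0.14. Either had an exact permutation p of 0.1, the smallest that 2 libraries against 3 allow. The Tnnt1 to Tnnt3 ratio changed sign, from 0.23 to -0.83 in old PBS against young PBS and from -0.03 to 1.04 in old rMETRNL against old PBS. Other libraries moved them too. Without old PBS 4 the Tnni1 to Tnni2 difference was 0.85 in old PBS against young PBS and -0.81 in old rMETRNL against old PBS, and that of Tnnt1 to Tnnt3 was 1.08 and -0.88. In old PBS against young PBS the Tnni1 to Tnni2 difference was 0.16 without old PBS 2 and 0.11 without young PBS 3, and that of Tnnt1 to Tnnt3 was -0.035 without young PBS 1.

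The effect of age was addressed by old PBS against young PBS. At an adjusted p of 0.05 by Benjamini and Hochberg's method, 0 of the 10 genes passed the quasi-likelihood test of edgeR, where 0.0643% of 15560 genes did. None had an unadjusted p under 0.05, and DESeq2 called 0 of the 10 beside 0.92% of its 28796 genes. The log2 fold changes were 0.57 ± 0.63 (standard error) for Tnni1, 0.73 ± 0.57 for Tnnt1, 0.87 ± 0.59 for Tnnc1 and 0.28 ± 0.42 for Atp2a2. Tpm3, the other slow gene, had a negative value, -0.16 ± 0.17. Among the fast genes they ran from -0.11 ± 0.37 (Tnnc2) to 0.21 ± 0.40 (Tnni2). Every adjusted p in this comparison was at least 0.994 (edgeR). The median of the 10 genes was 0.19 and that of all genes 0.01. In 0 of the 10 genes did the groups separate without overlap, as they did in 10.5% of all genes.

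These directions, except that of Tpm3, turned with the libraries kept. Tpm3 stayed below 0 whichever library was left out, from -0.27 to -0.064. Without old PBS 3 the log2 fold changes were -0.80 ± 0.22 for Tnni1, -0.39 ± 0.25 for Tnnt1, -0.24 ± 0.32 for Tnnc1 and -0.34 ± 0.29 for Atp2a2. Tnni1 then had the lowest adjusted p of any member under any alternative, 0.102 (edgeR), in a fit that called 2.52% of all genes. Without old PBS 4 they were 1.002 ± 0.49, 1.14 ± 0.43, 1.28 ± 0.45 and 0.64 ± 0.28, with adjusted p between 0.729 and 0.962 (edgeR) in a fit that called 0.0558% of all genes. Tnni2 and Tnnt3 turned the other way, Tnni2 from 0.50 ± 0.28 without old PBS 3 to -0.20 ± 0.34 without old PBS 4. Tnnc2 was negative in both fits, at -0.19 ± 0.42 and -0.35 ± 0.40.

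The effect of rMETRNL in old muscle was addressed by old rMETRNL against old PBS, which shares the old PBS libraries with the comparison of age, so their fold changes are not independent. None of the 10 genes passed edgeR's test, which called 0.108% of 15682 genes. None had an unadjusted p under 0.05, and DESeq2 called 0 of the 10 beside 1.22% of all genes. The log2 fold changes were -0.60 ± 0.64 for Tnni1, -0.64 ± 0.56 for Tnnt1, -0.76 ± 0.62 for Tnnc1, -0.36 ± 0.42 for Atp2a2 and -0.36 ± 0.38 for Tnni2. The median of the 10 was -0.32 and that of all genes -0.01. Tpm3 alone had a positive value, 0.32 ± 0.17, with an unadjusted p of 0.0940 and an adjusted p of 0.678 (edgeR). It was also the 1 member of 10 whose groups did not overlap, a property of 12.6% of all genes.

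Leaving out old PBS 3 turned the slow genes here too, to 0.76 ± 0.28 for Tnni1, 0.47 ± 0.24 for Tnnt1, 0.35 ± 0.40 for Tnnc1 and 0.26 ± 0.28 for Atp2a2. Tnni2 then stood at -0.64 ± 0.25 and Tpm3 at 0.43 ± 0.16. Their adjusted p ran from 0.112 (Tpm3) upwards (edgeR), where this fit called 9.76% of all genes. Without old PBS 4 the slow values were -1.05 ± 0.56, -1.06 ± 0.46, -1.19 ± 0.56 and -0.73 ± 0.29, with adjusted p of at least 0.639 (edgeR) in a fit that called 0.0372% of all genes. Tpm3 and Atp2a1 were the only members that kept their sign whichever of the 6 libraries was left out.

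Old PBS does not enter the comparison of old rMETRNL with young PBS, in which the log2 fold changes ran from -0.21 ± 0.27 (Tnnc2) to 0.17 ± 0.10 (Tpm3). Tnni1 had -0.03 ± 0.19, Tnnt1 0.09 ± 0.17 and Atp2a2 -0.07 ± 0.15. None of the 10 passed edgeR's test, which called 0.0% of 15396 genes, none had an unadjusted p under 0.05, and DESeq2 called none. Tpm3 was the 1 member whose groups did not overlap, as in 7.07% of all genes. A missed threshold does not show that the groups were alike, since with the standard error of Tnnc1, 0.34, a moderate difference could pass unseen.

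**Figure D3:**
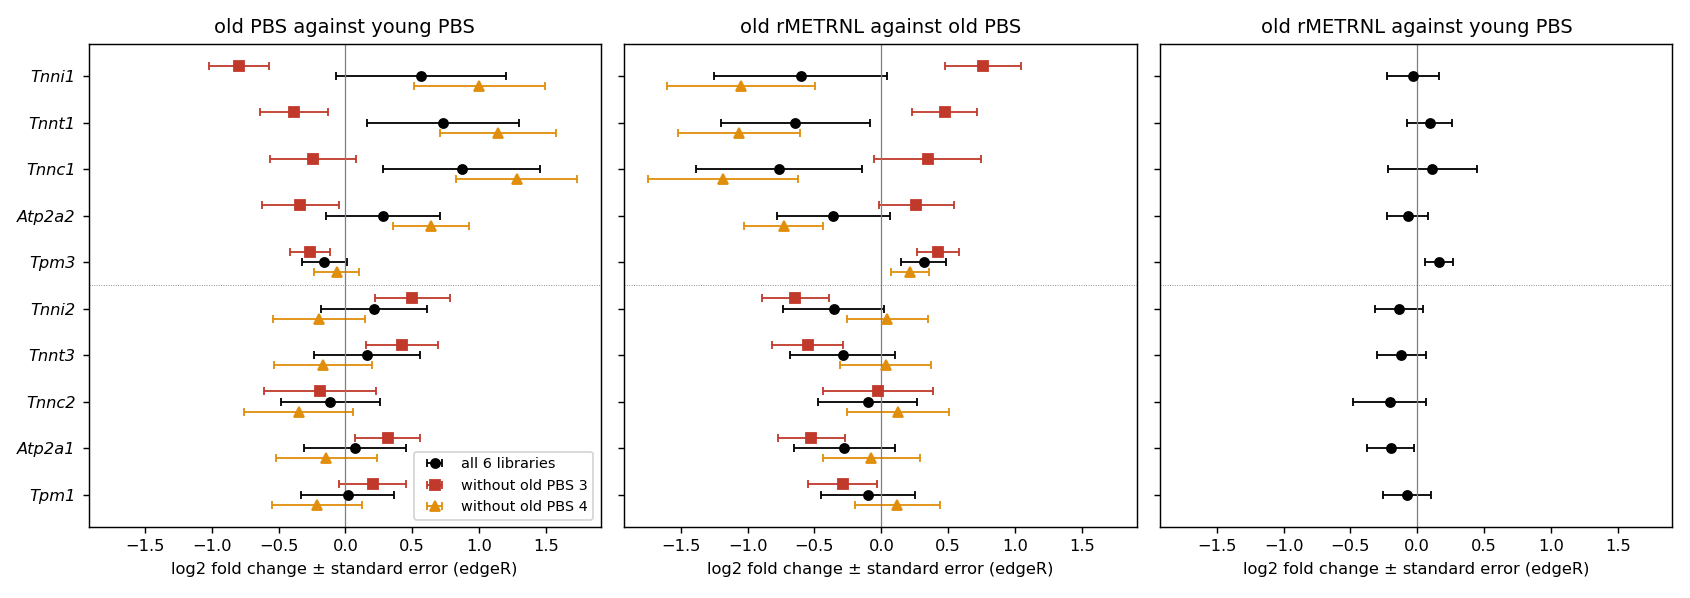
Log2 fold change ± standard error (edgeR) of each gene, slow genes above the dotted line and fast genes below it, for the 3 comparisons. Black circles use all 6 libraries, red squares leave out old PBS 3 and orange triangles old PBS 4. The slow troponins and Atp2a2 lie on opposite sides of 0 without old PBS 3 and without old PBS 4, and the old rMETRNL against young PBS values lie between -0.21 and 0.17.

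Genes of new and adult fibres showed what else distinguished these libraries. New fibres express embryonic and perinatal myosin before the adult chains. Of 7 new-fibre genes, 5 were highest in old PBS 3 and 6 lowest in old PBS 4. Over all genes old PBS 3 was highest in 15.2% and old PBS 4 lowest in 25.7%. Myh3, the embryonic myosin heavy chain, had 197, 343 and 328 CPM in young PBS, 264, 1256 and 55.5 CPM in old PBS, and 158, 413 and 260 CPM in old rMETRNL. Myh8, the perinatal chain, had 1760 CPM in old PBS 3 and 123 CPM in old PBS 4, against 382 to 708 CPM in the other 7 libraries. The slow troponins were thus highest in the library where 5 of these 7 genes were highest. Myog and Mymx were highest in old rMETRNL 2. A link between the slow troponins and new fibres was not tested. All 7 adult-fibre genes had the reverse order, lowest in old PBS 3 and highest in old PBS 4. Over all genes 8.9% had this order. Ckm (muscle creatine kinase) had 4687 and 11103 CPM in these libraries, and Mb (myoglobin) 723 and 2767 CPM. In bulk RNA, from tissue or from a suspension, fewer cells of a type and less RNA per cell cannot be told apart.

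Of 8 other genes of slow fibres, 3 were highest in old PBS 3 and lowest in old PBS 4, as Tnni1 and Tnnt1 were, an order found in 6.26% of all genes. These were Myl6b, a slow essential light chain found also outside muscle, with 81.9 and 13.3 CPM in these libraries, Csrp3 with 140 and 29.995 CPM, and Myoz2 with 103 and 37.1 CPM. The other 5 had other orders. Mybpc1, the most abundant of the 8, ran only from 3270 CPM (young PBS 3) to 4845 CPM (old PBS 2). It had 4338 CPM in old PBS 3. Of the 5, Myh7, Myl2 and Myl3 were picked for description after their values were seen. Myh7, the slow myosin heavy chain, had 1.96, 20.5 and 0.789 CPM in young PBS, 35.5, 9.30 and 2.01 CPM in old PBS, and 2.09, 9.44 and 34.8 CPM in old rMETRNL. Old PBS 3 ranked 5th of 9 for Myh7 and 8th for Myl2, the slow regulatory light chain, and was the lowest for Myl3, the slow essential light chain, with 6.38 CPM against 40.1 CPM in old PBS 4.

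**Figure D4:**
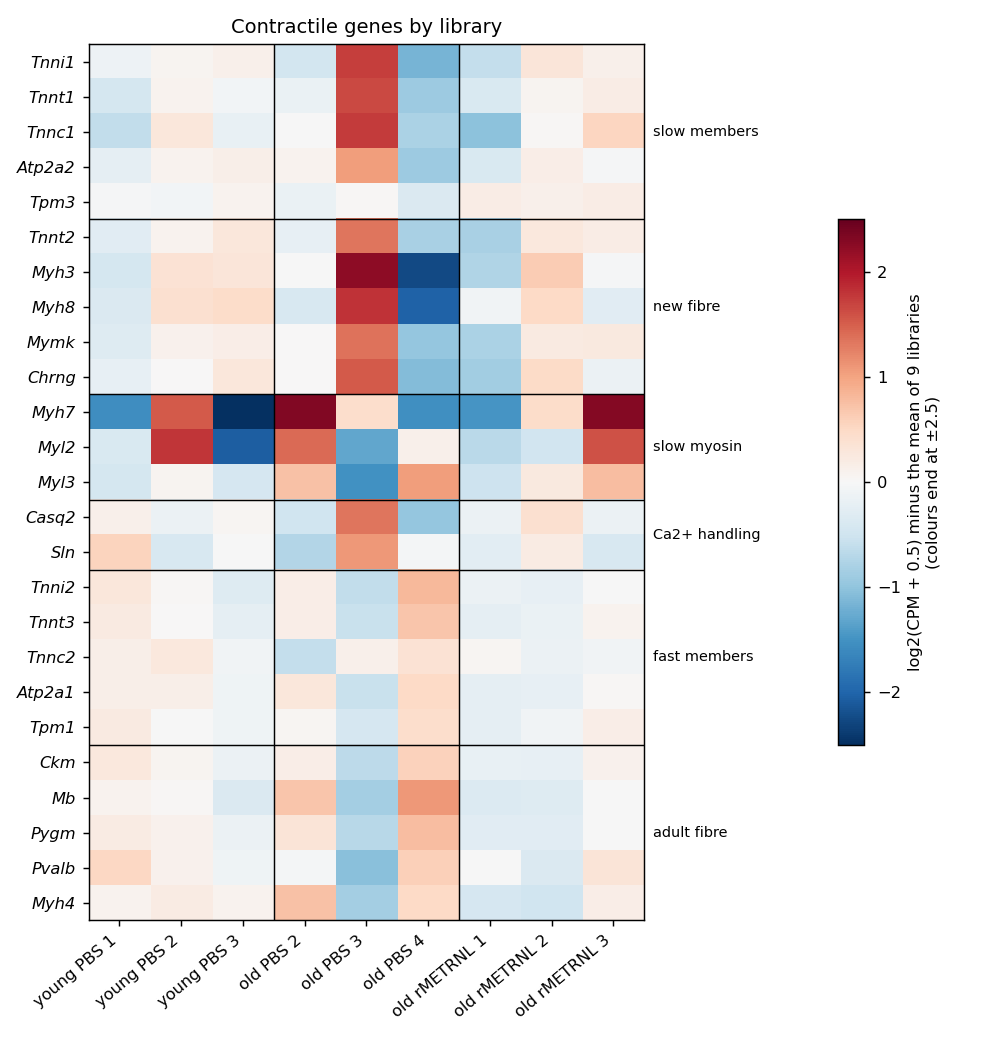
Level of contractile genes in the 9 libraries, as log2(CPM + 0.5) minus the mean of each gene over the libraries, red above and blue below that mean, with colours ending at ±2.5. Blocks are the slow members, new-fibre genes, slow myosin genes, calcium-handling genes, fast members and adult-fibre genes, and the genes outside the members were picked for the plot after their values were seen. The column of old PBS 3 is red for Tnni1, Tnnt1, Tnnc1, Atp2a2 and the new-fibre genes, and faintly for Myh7 (0.44). It is blue for Myl2 and Myl3. Old PBS 4 has the reverse signs, with Myh7 at -1.52, Myl2 only at 0.13 and Myl3 at 1.05.

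Other genes of the thin filament and of calcium storage were read from lists. Over 7 lists of contractile genes and their regulators, edgeR's test called 0 of 61 tested genes in each comparison, with 1 (old PBS against young PBS), 3 (old rMETRNL against old PBS) and 3 (old rMETRNL against young PBS) at an unadjusted p under 0.05, and DESeq2 called 0 of 62. The background shares for these comparisons were 0.0643%, 0.108% and 0.0%. Among 11 other thin-filament genes, the median log2 fold change was 0.07, -0.12 and -0.05. Acta1, the skeletal actin, the most abundant of them, stayed between 19721 CPM (old PBS 3) and 29943 CPM (old PBS 4). Tnnt2, which new fibres share with the heart, was highest in old PBS 3, with 154 CPM, and at 34.1 to 73.5 CPM elsewhere.

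Actc1, the cardiac actin that new fibres also make, had 1219, 945 and 990 CPM in young PBS, 474, 1328 and 334 CPM in old PBS, and 844, 872 and 800 CPM in old rMETRNL. Old PBS 2 and 4 were below all other libraries. Without old PBS 3 it fell in old PBS against young PBS, by 1.38 ± 0.23 on the log2 scale with an adjusted p of 0.0298 (edgeR), and it rose in old rMETRNL against old PBS, by 1.05 ± 0.21 with an adjusted p of 0.0171 (edgeR). With old PBS 3 neither passed, and Actc1 was not read from the fits without old PBS 4.

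Of 10 partners of the pumps, 9 were matched and 8 could be tested. Their medians were 0.14, -0.12 and -0.12. Casq2, the calsequestrin of slow fibres and heart, had 140, 502 and 101 CPM in old PBS 2, 3 and 4. The other groups had 180 to 262 CPM. Its highest and lowest libraries were those of Atp2a2, but old PBS 2 also lay below the other groups, unlike for Atp2a2. Casq1, the calsequestrin of fast fibres, was lowest in old PBS 3, with 2284 CPM, but highest in young PBS 1, with 3759 CPM. Sln (sarcolipin, an inhibitor of SERCA) was highest in old PBS 3, with 159 CPM. Pln (phospholamban, the inhibitor known from heart and slow fibres) did not exceed 0.566 CPM in any library. Parvalbumin (Pvalb), a calcium buffer of the fastest fibres, had 3380 CPM in old PBS 3 and 10599 CPM in old PBS 4. Casq2 and Sln were chosen after their values were seen.

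Without old PBS 3, 4 of 61 list genes were called in old PBS against young PBS (Actc1, Csrp3 and Myog lower, Myl3 higher) and 9 of 61 in old rMETRNL against old PBS, beside 2.52% and 9.76% of all genes. Among the latter Myog, the myogenin gene that drives differentiation, was higher by 1.82 ± 0.26, Mb lower by -1.11 ± 0.22, and Mrln (myoregulin, a small peptide that holds back SERCA) lower by -1.27 ± 0.34 on the log2 scale, with adjusted p of 0.00455, 0.0151 and 0.0440 (edgeR). The others were Actc1, Csrp3, Myoz2, Prox1 and Mymx, all higher, and Eya1, lower. None of the 10 members was among the genes called. The list genes were not read from the fits without old PBS 4. Those fits called 0.0558% of all genes in old PBS against young PBS and 0.0372% in old rMETRNL against old PBS. The calls above therefore hold only for the libraries left once old PBS 3 is dropped.

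Markers of other tissues were examined because several members are not specific to skeletal muscle. Heart muscle uses Tnnc1 and Atp2a2. The 8 heart genes summed to 2.31 to 4.40 CPM in old PBS, 0.677 to 2.38 CPM in young PBS and 0.857 to 2.35 CPM in old rMETRNL. Myl7 and Nkx2-5 had 0 counts in all 9 libraries. Ryr2 had 2.09, 0.830 and 2.01 CPM in old PBS and at most 0.289 CPM elsewhere, and Myh6 had 0.673, 1.44 and 1.32 CPM in old PBS and 0.0564 to 2.08 CPM elsewhere. Of 7 smooth muscle genes, 3 were highest in old PBS 3, as were 15.2% of all genes. The sum of the 7 was 320 CPM there and 170 to 262 CPM in the other libraries. Tagln and Cnn1 were at no more than 1.07 CPM. The 6 brain genes summed to 44.5 to 108 CPM in old PBS, lowest in old PBS 3, against at most 0.943 CPM in young PBS and 0.589 CPM in old rMETRNL. Mobp and Snap25 were at 0 in all 6 libraries outside old PBS. Of these 6 genes edgeR called 3 as higher in old PBS against young PBS and 4 as lower in old rMETRNL against old PBS. In all, these fits called 10 of 15560 genes (0.0643%) and 17 of 15682 (0.108%). The part of heart, brain and smooth muscle RNA in the levels of the 10 genes was not tested.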

How the data were processed

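RNA of injured tibialis anterior, as whole muscle or a cell suspension, was sequenced in 9 paired-end libraries (NEBNext Ultra, NovaSeq). The authors deposited raw counts, whole numbers of reads per Ensembl gene, with libraries kept apart. Per the labels' processing notes, reads were mapped with STAR and counted with featureCounts. Versions, annotation and strand setting are not given in the sources used here. The notes name mm9, but 54409 of 54532 identifiers occur in GENCODE M21, and coordinates and exon lengths are of that annotation (GRCm38).

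Groups were compared in pairs on 6 libraries with edgeR 4.0.16 in R 4.3.3 (filterByExpr, TMM, glmQLFit, glmQLFTest, Benjamini-Hochberg adjustment over all genes tested, threshold 0.05). A standard error is the size of the log2 fold change divided by the square root of F. CPM levels use TMM factors computed over the 9 libraries together. Slow-to-fast ratios were compared on the log2 scale with exact permutation tests. These were two-sided for pairs of groups and used the between-group sum of squares for the 3 groups. Alternatives were DESeq2 1.42.0 and its size factors, 2 other filters (none, and at least 10 counts in every library), a fit of 9 libraries, the replicate number as a block, and each library left out. The fit was tested on simulated data with a capped dispersion and with changes larger than those of the members. That test does not cover the spread of the slow genes in old PBS.

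The text names the 10 members and the 5 other genes most correlated with the slow or the fast troponins. It also names some, but not all, of the most abundant or called genes of the lists. Genes named outside this rule, including Myh7, Myl2, Myl3, Myl6b, Ryr2, Myh6, Casq1, Casq2, Sln, Pln, Tnnt2, Snap25, Tagln, Cnn1, Myl7 and Nkx2-5, were picked once their values were known. The members and lists were chosen with earlier results of these data known. Same-numbered libraries had correlations of their deviations from -0.32 to 0.41, so the numbers were not taken as pairs. The labels give no batch or date. Floors cover counting error only.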

Additional observations from a re-analysis of the deposited data

How the results depend on the processing

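The count of called members was 0 in all 3 comparisons under every alternative, with each library left out included. Of 360 fold changes of members under alternatives, 320 kept their direction and 40 turned. DESeq2's test, its size factors, no filter, the minimum of 10 counts and the fit of 9 libraries turned none of these fold changes, and 0.5 added to each count, tried on the ratios only, turned no ratio.

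With the replicate block, in old PBS against young PBS the log2 fold change was -0.0819 for Tnni2, -0.0896 for Tnnt3, -0.16 for Atp2a1 and -0.13 for Tpm1. In old rMETRNL against old PBS the block gave 0.12 for Tnni2, 0.14 for Tnnt3, 0.13 for Tnnc2, 0.0375 for Atp2a1 and 0.23 for Tpm1. The block gave log2 differences of ratios of 0.63 (Tnni1 to Tnni2) and 0.0530 (Tpm3 to Tpm1) in old PBS against young PBS, and of -0.55 (Tnni1 to Tnni2), -0.55 (Atp2a2 to Atp2a1) and -0.00915 (Tpm3 to Tpm1) in old rMETRNL against old PBS. In these 2 comparisons the block uses only the numbers 2 and 3, so that old PBS 4 and the libraries numbered 1 are left out of it. From group mean CPM, the ratio of Tnni1 to Tnni2 differed by 0.35 in old PBS against young PBS and by -0.24 in old rMETRNL against old PBS, and Atp2a2 to Atp2a1 by -0.0822 in the latter.

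With each library left out in turn, in old PBS against young PBS the lowest and highest log2 fold changes were -0.80 to 1.002 for Tnni1, -0.39 to 1.14 for Tnnt1, -0.24 to 1.28 for Tnnc1, -0.34 to 0.64 for Atp2a2, -0.20 to 0.50 for Tnni2, -0.17 to 0.43 for Tnnt3, -0.35 to 0.16 for Tnnc2, -0.14 to 0.32 for Atp2a1 and -0.21 to 0.21 for Tpm1. The log2 differences of ratios there were -1.32 to 0.85 for Tnni1 to Tnni2, -0.83 to 1.08 for Tnnt1 to Tnnt3, -0.74 to 0.77 for Atp2a2 to Atp2a1 and -0.47 to 0.16 for Tpm3 to Tpm1. With each library left out in turn, in old rMETRNL against old PBS the lowest and highest log2 fold changes were -1.05 to 0.76 for Tnni1, -1.06 to 0.47 for Tnnt1, -1.19 to 0.35 for Tnnc1, -0.73 to 0.26 for Atp2a2, -0.64 to 0.0450 for Tnni2, -0.55 to 0.0336 for Tnnt3, -0.37 to 0.13 for Tnnc2 and -0.29 to 0.12 for Tpm1. The log2 differences of ratios there were -0.81 to 1.36 for Tnni1 to Tnni2, -0.88 to 1.04 for Tnnt1 to Tnnt3, -1.28 to 0.16 for Tnnc1 to Tnnc2 and -0.65 to 0.86 for Atp2a2 to Atp2a1. With each library left out in turn, in old rMETRNL against young PBS the lowest and highest log2 fold changes were -0.22 to 0.19 for Tnni1, -0.0525 to 0.24 for Tnnt1, -0.29 to 0.44 for Tnnc1, -0.21 to 0.0613 for Atp2a2, -0.28 to 0.0149 for Tnni2 and -0.19 to 0.0160 for Tpm1. The log2 differences of ratios there were -0.18 to 0.30 for Tnni1 to Tnni2, -0.0649 to 0.36 for Tnnt1 to Tnnt3, -0.16 to 0.74 for Tnnc1 to Tnnc2 and -0.0401 to 0.28 for Atp2a2 to Atp2a1.

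With 3 libraries in a group, the spread within old PBS sets the standard errors of both comparisons that use it, and for Tnnc2 the 19 to 56 counts add to them.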

Other observations

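The genes most like the slow troponins over the 9 libraries, by Pearson correlation of log2 CPM with their mean among 16114 genes, were Mymk (0.976), Zfp280d (0.973), Tnnt2 (0.970), Ankrd10 (0.966) and Slc6a7 (0.962). Mymk encodes myomaker, a membrane protein needed for myoblast fusion. Without old PBS 3 the correlations were 0.968 for Mymk, 0.961 for Zfp280d, 0.940 for Tnnt2, 0.921 for Ankrd10 and 0.924 for Slc6a7. The genes most like the fast troponins, whose mean includes the uncertain Tnnc2, were Hspb2 (0.989), Mrps25 (0.988), Ctdnep1 (0.985), Fam174a (0.983) and Mrps14 (0.978). Hspb2 encodes a small heat shock protein of muscle, and Mrps25 and Mrps14 encode proteins of the mitochondrial ribosome. These are descriptions over 9 libraries that share their depth and scaling, and the extremes of old PBS enter each of them.

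Mymk itself had 15.9, 21.6 and 22.6 CPM in young PBS, 20.1, 52.2 and 9.998 CPM in old PBS, and 11.3, 23.6 and 23.8 CPM in old rMETRNL. Old PBS 3 was the highest and old PBS 4 the lowest, as for Tnni1 and Tnnt1.

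Of 12 regulators of fibre type, none was called by edgeR in the 3 comparisons with all libraries, and their median log2 fold changes were 0.14, -0.25 and -0.09. Tbx15, a factor linked with glycolytic fibres, ran from 207 CPM (old PBS 3) to 391 CPM (old PBS 4). Sox6, known to hold back slow-fibre genes, was lowest in old rMETRNL 1 with 98.0 CPM, closely followed by old PBS 3 with 98.3 CPM, and highest in old PBS 2 with 183 CPM. Tead1 and Mef2c, the most abundant others, were highest in old PBS 2, with 377 and 1145 CPM.

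Of 8 other fast-fibre genes, 4 were lowest in old PBS 3 and 3 highest in old PBS 4. The shares over all genes were 15.5% and 25.5%. Myh4, the fastest adult myosin chain, had 14070 CPM in old PBS 3 and 36084 CPM in old PBS 4, whereas Myh1 had 16338 and 9606 CPM. The fast-fibre genes therefore did not all follow the fast troponins.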
